A study of Mus musculus with 14 samples.

Results

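The response of extraembryonic endoderm cells to a METTL3 inhibitor was set against the response of trophoblast and epiblast stem cells. The measure was an interaction: the log2 change with STM2457 in endoderm cells minus the mean of the log2 changes in the other 2 lines. It was estimated for every gene and described for 9047 genes of 18430 tested (49.1%), out of 55416 gene identifiers in the deposited table. The 9047 genes were chosen by their level in DMSO: a mean of at least 5 CPM, counts scaled to the library total, in the DMSO libraries of each line. All were thus read in all 3 lines, and their DMSO levels are given as a description only.

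RNA sequencing counts came from 14 libraries of hybrid mouse cells (Mus molossinus crossed with Mus musculus). XEN cells, extraembryonic endoderm stem cells labelled wild type, were kept in DMEM with 10% FBS and gave 3 libraries with STM2457 and 3 with its solvent DMSO. TSC, trophoblast stem cells labelled wild type, grew in RPMI with 20% FBS, medium conditioned by fibroblasts and Fgf4, and gave 2 libraries per arm. EpiSC, epiblast stem cells of the genotype XmolXmus-ΔTsix, grew in knockout DMEM with 20% serum replacement, Fgf2 and Activin A, and gave 2 libraries per arm. In every line the inhibitor was given at 50 µM for 12 h to cells seeded the day before, and libraries were made with a stranded total RNA kit. Each kind of cell is 1 line, so cell kind, medium and genotype cannot be told apart. Nothing in the labels states whether replicates of a group were grown as separate cultures. The spread behind each p-value is thus that between these libraries, and may be technical.

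METTL3 is the catalytic subunit of the nuclear complex that writes N6-methyladenosine (m6A) on RNA, and STM2457 blocks its catalytic site. In messenger RNA the mark lies mostly in long exons and near stop codons, and reader proteins of the YTH family bind it and can speed decay of the transcript. XEN cells model the primitive endoderm, the layer that forms the yolk sac endoderm and handles lipid and nutrient uptake for the early embryo. Sterol supply in such cells is governed by SREBP factors, which switch on the synthesis enzymes when membrane sterol is low.

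The libraries carried their lineage markers. The summed level of 7 endoderm markers such as Gata4 and Sox17 was 2720 to 3110 CPM in XEN and at most 40.9 CPM elsewhere, that of 6 trophoblast markers 1570 to 1660 CPM in TSC, and that of 6 epiblast markers 1040 to 1240 CPM in EpiSC. Fibroblast markers (7 genes) summed to at most 0.972 CPM in XEN, 3.14 to 4.24 CPM in TSC and 41.7 to 55 CPM in EpiSC. XEN libraries stood apart from the rest. They held 6826496 to 10024628 counts against 17909934 to 21097380, mitochondrial ribosomal RNA took 12.02 to 16.01% of their counts against at most 0.05049%, and replication-dependent histone genes took 0.474 to 0.7232% against at most 0.0417%. Replicates also differed more in XEN, with a chi-square per degree of freedom of 9.29 to 24 against 2.18 to 4.98. The part of these differences in the results below was not tested.

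The difference between lines passed the test for a minority of genes. Of the 9047 genes, 282 were called in the interaction (3.12%) by edgeR's quasi-likelihood test with XEN libraries paired by replicate number, at a Benjamini-Hochberg adjusted p under 0.05 over all tested genes. The response of 134 was higher in XEN (1.48%) and that of 148 lower (1.64%). Over all tested genes 1.79% were called. The median interaction was 0.0102 on the log2 scale, with quartiles of -0.12 and 0.139. Only 5 called genes differed by 2-fold or more: D10Wsu102e, Lrp8 and Ebp on the higher side, Egr1 and Sptb on the lower. In bulk RNA, a change in the number of cells of one type and a change in RNA per cell cannot be told apart.

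The count of calls depended on the pairing and on single libraries. Without the pairing the same test called 1 gene, D10Wsu102e, so every other call named below rests on it, while 690 genes had an unadjusted p under 0.05. Leaving out the first XEN pair raised the count to 836, and leaving out the second or the third gave 205 and 157. Leaving out 1 library of the other lines gave 139 without the second TSC DMSO library, 129 and 110 without the first or the second TSC STM2457 library, 167 and 187 without the first or the second EpiSC DMSO library, and 186 and 122 without the first or the second EpiSC STM2457 library. Leaving out 1 XEN library alone gave 842 or 840 for the first pair, 205 or 203 for the second and 159 for either library of the third. The split by direction also moved with scaling, from 134 higher and 148 lower to 98 and 213 with RLE size factors and 85 and 192 with DESeq2.

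Line by line, the inhibitor changed 2473 of the genes in XEN (27.3%), 2272 in TSC (25.1%) and 2417 in EpiSC (26.7%). The XEN change differed from the TSC change for 152 genes (1.68%) and from the EpiSC change for 342 (3.78%). These 2 comparisons share the XEN libraries. The TSC and EpiSC changes themselves differed for 193 genes (2.13%), so their mean covers unlike values for some genes, and both are given below.

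**Figure D1:**
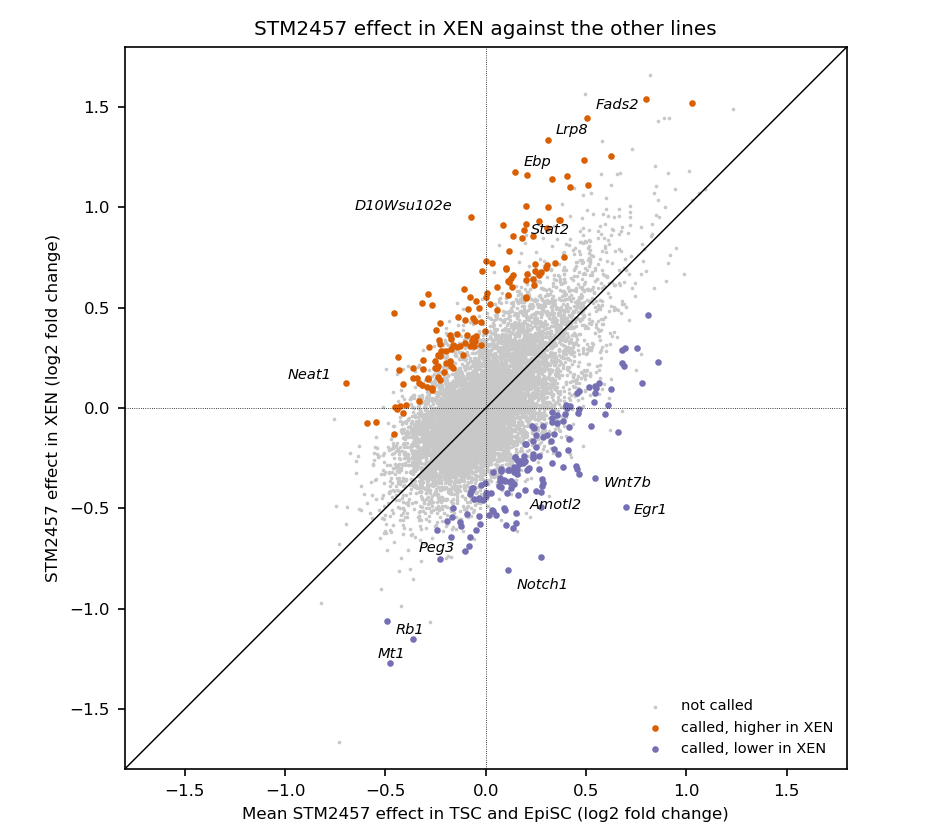
Change with STM2457 in XEN (vertical axis, log2) against the mean change in TSC and EpiSC (horizontal axis, log2) for the 9047 genes, with the 134 genes called higher in XEN and the 148 called lower in colour. Most genes lie near the diagonal, and only 5 of the called genes are 2-fold or more away from it.

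Among the 134 higher genes, XEN rose in 98 and fell in 0 (15% and 12.3% of all genes). The TSC and EpiSC mean rose in 32 and fell in 48 (20.4% of all genes rose in that mean and 20.8% fell). The median changes of the 134 genes were 0.451 in XEN, -0.0228 in TSC and -0.0737 in EpiSC (log2). For 54 of them XEN was called and the mean of the others was not, for 36 the reverse held, 32 moved the same way in both and 12 moved in opposite ways. Among the 148 lower genes, XEN fell in 92 and rose in 4 (12.3% and 15% of all genes). The mean of the others rose in 76 and fell in 9 (20.4% and 20.8% of all genes). The medians of the 148 genes were -0.308, 0.179 and 0.197, and 63, 52, 13 and 20 of them fell in the same 4 classes. Both sets were picked by the XEN change minus the mean of the others, so these directions are partly set by the selection.

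In 112 of the 134 higher genes each of the 3 XEN differences within a pair lay above all 8 differences that can be formed within TSC and within EpiSC, and in 122 of the 148 lower genes each lay below. Over all 9047 genes, 542 (5.99%) and 503 (5.56%) met those conditions. The calls and these conditions use the same libraries and differences, so the high counts among called genes follow largely from the selection.

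Cholesterol synthesis and uptake had the largest median difference of the gene lists in the main fit. Of 23 listed genes present among the 9047, 6 were called higher and 0 lower (1.48% and 1.64% of all genes). The estimate was above 0 in all 23. Their median interaction was 0.555 on the log2 scale, against 0.0102 over all genes. In XEN 21 of the 23 rose (15% of all genes rose there), in TSC 17 (12.9%) and in EpiSC 4 (14.9%). The difference lay mainly on the EpiSC side: 11 rose more in XEN than in EpiSC (1.68% of all genes), and 2 rose more in XEN than in TSC (0.829%), Ebp and Mvk, while Insig1 rose less in XEN than in TSC (0.851% of all genes).

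The called genes described here act at different points of the pathway. Mvk (mevalonate kinase) and Pmvk (phosphomevalonate kinase) work before the first sterol, and Tm7sf2 (a sterol C14-reductase) and Ebp (the sterol delta8-delta7 isomerase) in the later steps. RefSeq promoters on build GRCm38.p6 were at hand for 17 of the 23 genes. The CCAAT box bound by NF-Y, which works beside SREBP at sterol promoters, was searched as CCAAT or its reverse complement ATTGG in the 250 bases before the start. It was present in 16 of 17 (94.1%), all but Acat2, against 37.5% of 27025 genes. The letters TCACNCCA, a form of the sterol regulatory element searched on both strands, were present in 3 of 17 (17.6%), Hmgcs1, Msmo1 and Srebf2, against 4.2% of all. A match is a description of these letters and not of binding. The last 180 bases before the start are shown for 4 called genes that had an entry with a box in that stretch. Holding a box was thus a condition for being shown. The box was in nearly all genes of the list with a promoter, called or not, so it does not mark the called ones. Capitals mark each box, and sequences run 5′ to 3′ on the strand of the gene.
Ebp: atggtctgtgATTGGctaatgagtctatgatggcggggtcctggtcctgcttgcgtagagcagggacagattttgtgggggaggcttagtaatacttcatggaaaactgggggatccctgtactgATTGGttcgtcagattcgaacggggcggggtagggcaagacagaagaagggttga
Mvk: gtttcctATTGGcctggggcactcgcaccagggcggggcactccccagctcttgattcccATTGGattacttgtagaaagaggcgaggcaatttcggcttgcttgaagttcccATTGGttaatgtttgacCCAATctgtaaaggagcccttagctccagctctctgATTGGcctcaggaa
Tm7sf2: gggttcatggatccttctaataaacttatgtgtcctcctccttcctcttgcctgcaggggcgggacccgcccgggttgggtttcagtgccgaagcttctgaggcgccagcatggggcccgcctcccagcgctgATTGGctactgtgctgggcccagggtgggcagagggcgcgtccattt
Pmvk: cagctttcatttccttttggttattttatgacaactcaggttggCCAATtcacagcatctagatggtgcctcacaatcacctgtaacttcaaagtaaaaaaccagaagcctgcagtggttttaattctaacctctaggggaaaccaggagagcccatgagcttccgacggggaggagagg
The promoters lie at chrX:8193513-8193692 on the minus strand (Ebp), chr5:114444089-114444268 on the plus strand (Mvk), chr19:6067851-6068030 on the minus strand (Tm7sf2) and chr3:89454361-89454540 on the plus strand (Pmvk). The stretch of Mvk holds 5 boxes, that of Ebp 2, and those of Tm7sf2 and Pmvk 1 each. Pmvk has 2 entries, and the one with a box is shown.

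Ebp (ENSMUSG00000031168) had the clearest difference of the group. It was read at 46.8, 26.9 and 35.1 CPM in the XEN DMSO libraries and at 123, 48.8 and 80.1 CPM in the STM2457 libraries of the same numbers. In TSC it went from 26.8 and 31 CPM to 31.8 and 32.2 CPM, and in EpiSC from 28.9 and 29.6 CPM to 31.5 and 33.1 CPM. Each of the 3 treated XEN libraries was above every library of the other groups. The log2 change was 1.18 in XEN, 0.15 in TSC and 0.14 in EpiSC, and the interaction 1.03 ± 0.116 (SE; edgeR adjusted p = 2.46e-06).

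Mvk was read at 19.1, 10.7 and 11.8 CPM in XEN DMSO and at 38.4, 17.5 and 27.6 CPM with STM2457. It went from 22.6 and 23 CPM to 28.1 and 27.9 CPM in TSC and from 42.6 and 39.3 CPM to 44.1 and 43.9 CPM in EpiSC. The XEN arms overlapped, but the treated library was higher in each pair. The interaction was 0.81 ± 0.134 (SE; edgeR adjusted p = 0.000904).

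Tm7sf2, which shares exons with Vps51 on the same strand, was called in XEN and TSC but not in EpiSC, and the EpiSC change minus the TSC change, -0.61, did not pass (edgeR adjusted p = 0.083). In XEN it went from 14.7, 11.8 and 13.3 CPM to 47.2, 17 and 27.7 CPM. In TSC it went from 14.3 and 14.8 CPM to 19.6 and 21.8 CPM, and in EpiSC from 34.2 and 33.2 CPM to 31.2 and 31.6 CPM. The treated libraries were above the DMSO libraries in XEN and TSC and below them in EpiSC, which stood highest in DMSO. Tm7sf2 rose by 1.16 in XEN and 0.51 in TSC on the log2 scale, and its EpiSC change of -0.10 was not called. The interaction was 0.96 ± 0.166 (SE; edgeR adjusted p = 0.00154). The XEN change exceeded that of EpiSC by 1.26 (adjusted p = 0.000119 in edgeR), and its excess over TSC, 0.65, did not pass (adjusted p = 0.1 in edgeR).

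Pmvk followed the same order. It was read at 40.6, 26.6 and 36.8 CPM in XEN DMSO and 94.9, 35.8 and 68.3 CPM with STM2457, at 34.2 and 36.3 CPM and then 49.2 and 46.6 CPM in TSC, and at 27 and 24.3 CPM and then 27.7 and 29.8 CPM in EpiSC. It was higher in each treated XEN library of a pair, though the XEN arms overlapped, and the second pair differed least. It rose by 0.90 in XEN and 0.44 in TSC, and its EpiSC change of 0.16 was not called. The interaction was 0.59 ± 0.128 (SE; edgeR adjusted p = 0.0123).

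The remaining 17 sterol genes were not called, with estimates from 0.01 for Insig1 to 1.07 ± 0.28 for Mvd (SE; edgeR adjusted p = 0.131). Insig1, which holds the SREBP complex in the endoplasmic reticulum, rose by 0.70 in XEN and by 1.26 in TSC (log2), a difference of -0.56 (adjusted p = 0.0283 in edgeR). Msmo1, a sterol C4-methyl oxidase, rose in all 3 lines, by 1.49, 1.88 and 0.58 in XEN, TSC and EpiSC.

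The size of the sterol response differed between the XEN pairs. The first pair had the highest of the 3 differences in 21 of the 23 genes and the second the lowest in 22, with medians of 1.53, 0.518 and 1.05 (log2) in pairs 1, 2 and 3. Without the first pair the median interaction was 0.231 with 7 called and 21 above 0. Without the second it was 0.761 with 19 called, and without the third 0.588 with 5 called. Scaled to ribosomal protein genes, 1 was called, 21 were above 0 and the median was 0.354, beside a median of -0.17 over all 9047 genes under that scaling. The first rank of the sterol list also depended on the first pair. Without that pair the median of cytosolic ribosomal proteins, 0.295, was larger.

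**Figure D2:**
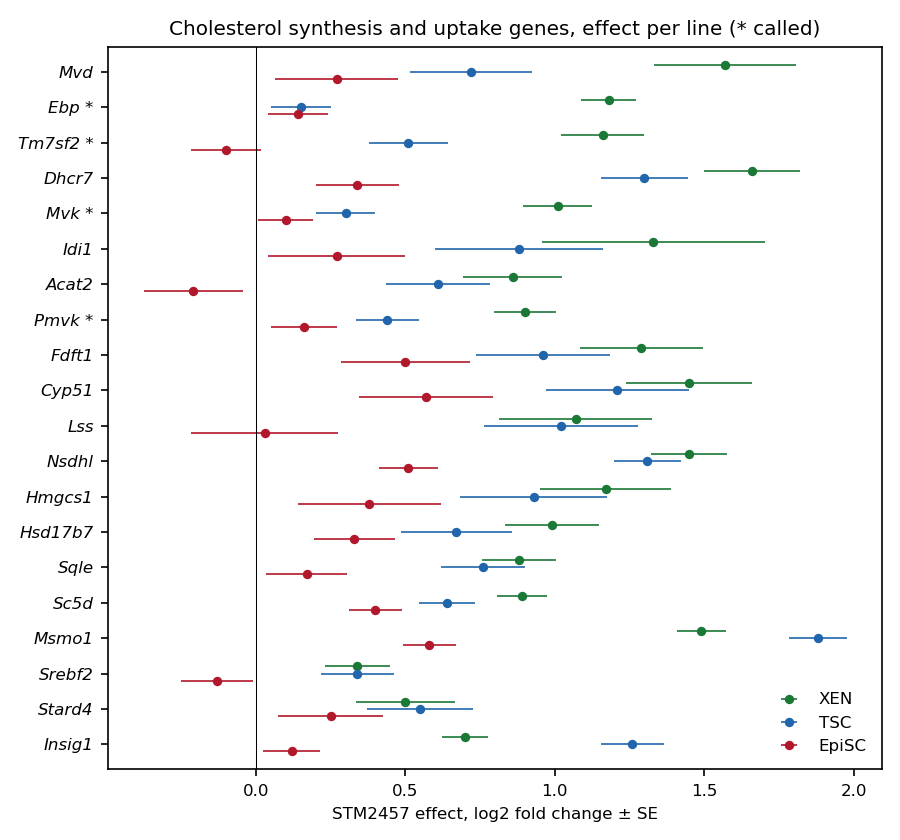
Log2 change with STM2457 (horizontal axis) for 20 of the cholesterol synthesis and uptake genes (rows), with points for XEN, TSC and EpiSC, bars of 1 SE and an asterisk where the interaction was called. XEN and TSC lie to the right of EpiSC for most genes, and Ebp is the gene in which XEN stands farthest from both.

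Lrp8 and Vldlr, related receptors outside that list, responded in opposite ways. Lrp8, a receptor for apolipoprotein E and reelin, was read at 11.7, 6.64 and 7.2 CPM in XEN DMSO and at 33.3, 14.9 and 16.9 CPM with STM2457. It went from 58.9 and 55.9 CPM to 73.2 and 79.8 CPM in TSC and from 78.8 and 82.3 CPM to 94.3 and 91.2 CPM in EpiSC. The arms did not overlap in any line, and the interaction was 1.03 ± 0.14 (SE; edgeR adjusted p = 5.48e-05). Vldlr, its close relative, responded the other way, with an interaction of -0.44 ± 0.105 (SE; edgeR adjusted p = 0.023), with changes of -0.28 in XEN, 0.01 in TSC and 0.32 in EpiSC.

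Fatty acid synthesis had 4 of 15 genes called higher (1.48% of all genes), Fads2, Elovl6, Acly and Acss2, and 0 lower. Its median interaction was 0.169, and 11 of 15 were above 0. XEN exceeded EpiSC in 5 (1.68% of all genes) and TSC in 0 (0.829%). Fads2, the delta-6 desaturase, went from 35.9, 16.2 and 23.1 CPM to 135, 36.8 and 47.3 CPM in XEN, from 48.7 and 42.7 CPM to 82.9 and 83.1 CPM in TSC, and from 267 and 255 CPM to 288 and 292 CPM in EpiSC. The arms did not overlap in any line, and the interaction was 0.94 ± 0.148 (SE; edgeR adjusted p = 0.00207). Elovl6, which lengthens palmitate, rose by 1.16 in XEN and 0.68 in TSC and was at 0.13 in EpiSC (log2), with an interaction of 0.75. Acly, which makes cytosolic acetyl-CoA from citrate, differed by 0.53, and Acss2, which makes it from acetate, by 0.84. Fasn, the fatty acid synthase itself, rose by 0.66 in XEN and 0.99 in TSC and differed by 0.06, which was not called. Without the first XEN pair the median was 0.0487, 8 of the 15 were above 0, and Lpin1 was called lower beside 4 called higher. Without the second pair the median was 0.285 with 5 called higher. Scaled to ribosomal protein genes, 0 of the 15 were called by edgeR, 7 were above 0 and the median was -0.0141, beside -0.17 over all genes.

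D10Wsu102e (ENSMUSG00000020255), a protein-coding gene, had the smallest p of the named genes. It was read at 95.1, 128 and 113 CPM in XEN DMSO and at 196, 206 and 245 CPM with STM2457. TSC went from 84.4 and 78.8 CPM to 85.6 and 86.3 CPM, and EpiSC from 125 and 129 CPM to 108 and 111 CPM. The treated XEN libraries were above all others, and the interaction was 1.03 ± 0.0939 (SE; edgeR adjusted p = 3.09e-08). It was the only named gene called under every alternative run (adjusted p = 0.0412 without the pairing in edgeR). Its exons overlap those of Aldh1l2 on the opposite strand.

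Tor1aip2, which activates the torsin ATPase of the endoplasmic reticulum, rose in XEN from 403, 458 and 413 CPM to 887, 883 and 1040 CPM. It went from 188 and 184 CPM to 276 and 266 CPM in TSC and from 114 and 110 CPM to 116 and 127 CPM in EpiSC. The interaction was 0.81 ± 0.0926 (SE; edgeR adjusted p = 2.59e-06). Cnp, a myelin-associated phosphodiesterase also found in other cells, rose in XEN alone among the 3 tests, by 0.91 against 0.07 and 0.10, with a difference of 0.82. It overlaps Dnajc7. Marcksl1, an actin-regulating MARCKS relative, rose by 0.60 against 0.02 and 0.09 and differed by 0.55. Borcs6, a subunit of the complex that positions lysosomes, differed by 0.73.

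Some positive differences came from a fall in the other lines. Neat1 (ENSMUSG00000092274), the nuclear RNA that scaffolds paraspeckles, was read at 1250, 2030 and 1900 CPM in XEN DMSO and at 1570, 1830 and 2160 CPM with STM2457. In TSC it fell from 180 and 166 CPM to 119 and 126 CPM, and in EpiSC from 33.5 and 41.3 CPM to 21.2 and 19 CPM. The XEN arms overlapped, the second pair going down, and the arms of the other lines did not. The changes were 0.12, -0.49 and -0.90 (log2), and the interaction 0.82 ± 0.113 (SE; edgeR adjusted p = 0.000113). Thoc6, a subunit of the THO complex of messenger RNA export, fell by 0.59 in TSC and by 0.59 in EpiSC against -0.08 in XEN, and differed by 0.52. Kctd17, an adaptor of the CUL3 ubiquitin ligase, rose by 0.51 in XEN and fell by 0.39 in TSC. Swsap1, a partner of SWS1 in homologous recombination, rose by 0.57 in XEN and fell by 0.60 in TSC.

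Nxt1, Cbx2 and Dusp6 rose in all 3 lines, and Stat2 and Asns did not. Nxt1, the partner of the export receptor NXF1, rose by 1.52 in XEN, 0.92 in TSC and 1.13 in EpiSC, a difference of 0.49 ± 0.113 (SE; edgeR adjusted p = 0.0174). Cbx2, a chromodomain subunit of polycomb complex PRC1, rose by 1.00, 0.33 and 0.29 and differed by 0.69. Dusp6, the ERK phosphatase that limits FGF signalling, rose by 0.94, 0.30 and 0.43 and differed by 0.57. Stat2, a transducer of type I interferon signals, rose by 0.85 in XEN and 0.42 in TSC and was at -0.05 in EpiSC. It was the 1 gene called of 10 interferon response genes (1.48% of all genes were called higher). Of the 10, 8 were above 0 with a median of 0.144. Scaled to ribosomal protein genes, edgeR called 0 of the 10, 4 were above 0 and the median was -0.0465, beside -0.17 over all genes. Asns, asparagine synthetase, rose by 0.30 in XEN and fell by 0.22 in TSC, a difference of 0.45.

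**Figure D3:**
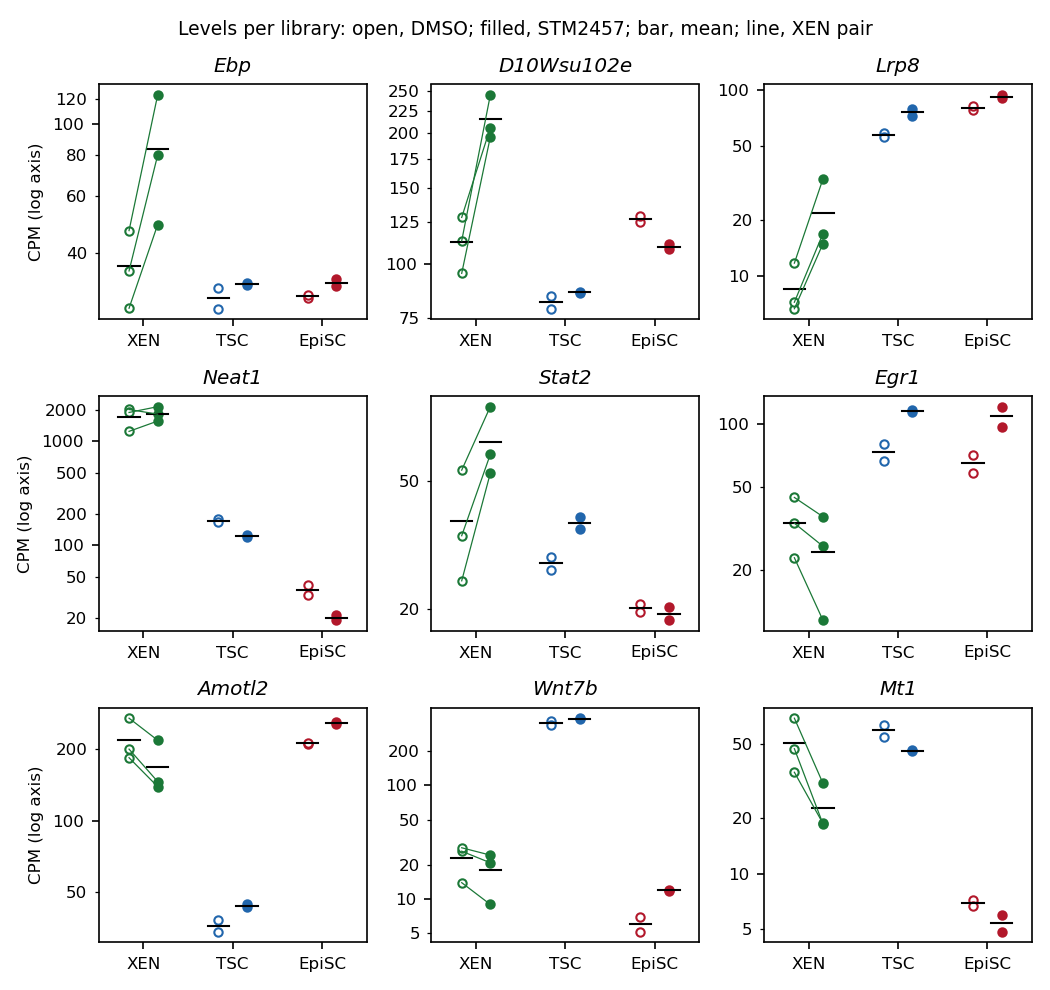
Level in CPM (vertical axis, log scale) of 9 genes in each of the 14 libraries by line, with open points for DMSO, filled points for STM2457, bars for means and lines joining XEN libraries of the same number. Ebp and D10Wsu102e are higher with STM2457 in each XEN pair, and Egr1 is lower in each XEN pair and higher in both other lines.

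Immediate early genes, transcription factors and regulators induced within minutes by growth factors, rose in EpiSC for 12 of the 16 listed genes (14.9% of all genes rose there). In TSC 1 rose and 3 fell, and in XEN 1 rose, Maff, and 2 fell, Egr1 and Ier2. In the interaction Egr1 was called lower and Btg2 higher (1.64% and 1.48% of all genes). The estimate was above 0 in 2 genes, and the median was -0.261. Against EpiSC alone, 6 of the 16 were lower in XEN (2.1% of all genes), and against TSC 1 was.

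Egr1 (ENSMUSG00000038418), a zinc finger factor induced by serum and ERK, had the largest negative difference. It was read at 44.5, 33.5 and 22.9 CPM in XEN DMSO and at 36, 26 and 11.5 CPM with STM2457. In TSC it went from 80.1 and 66.6 CPM to 114 and 117 CPM, and in EpiSC from 58.4 and 71.4 CPM to 96.5 and 121 CPM. The treated XEN library was lower in each pair though the arms overlapped, and the treated libraries of the other lines were above their DMSO libraries. Egr1 fell by 0.49 in XEN, and rose by 0.65 in TSC and 0.74 in EpiSC. The interaction was -1.19 ± 0.185 (SE; edgeR adjusted p = 0.00469). The call was lost without either library of the second XEN pair (estimate -1.25, edgeR adjusted p = 0.0819 without the DMSO library), and the estimate ranged from -1.38 to -1.03 over the alternatives.

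Junb, an AP-1 subunit, shows the EpiSC side. It went from 57.5 and 62.1 CPM to 109 and 119 CPM in EpiSC, from 99.1 and 87.6 CPM to 99.2 and 97.8 CPM in TSC, and from 40.3, 42.3 and 23.4 CPM to 39.5, 55 and 26.9 CPM in XEN. It rose by 0.93 in EpiSC, and the XEN change was lower than that by 0.74: the difference was -0.74 (adjusted p = 0.000855 in edgeR). Its interaction of -0.32 was not called (edgeR adjusted p = 0.153). Ier3, Ier2, Jun and Klf6 also differed between XEN and EpiSC, by -0.89, -0.51, -0.51 and -0.55. Maff, a small MAF factor, rose by 0.61 in XEN and 1.07 in EpiSC. Btg2, an antiproliferative adaptor of the CCR4-NOT deadenylase, fell by 0.32 in TSC and changed by 0.14 in XEN and -0.13 in EpiSC.

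**Figure D4:**
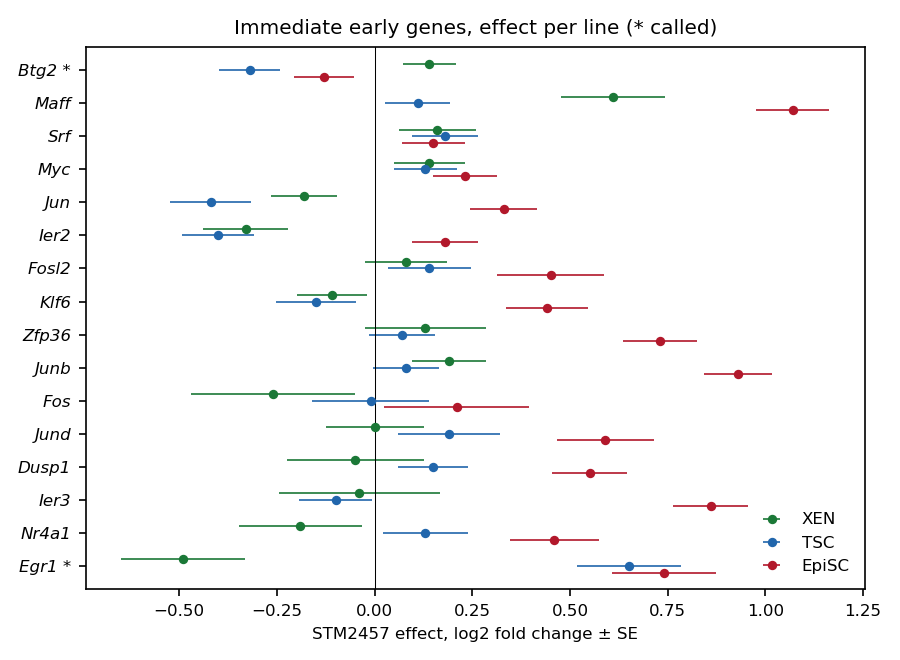
Log2 change with STM2457 (horizontal axis) for the 16 immediate early genes (rows) in XEN, TSC and EpiSC, with bars of 1 SE and an asterisk where the interaction was called. EpiSC points lie to the right for most genes, and Egr1 is the gene with XEN farthest to the left of both other lines.

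Amotl2, Frmd6 and Vgll4, which act in the Hippo pathway that links cell contact to growth, had lower responses in XEN. Amotl2 (angiomotin-like 2), which binds YAP at junctions and is a YAP target, fell in XEN from 270, 184 and 200 CPM to 218, 139 and 146 CPM. It went from 38.2 and 34 CPM to 44.5 and 43.1 CPM in TSC and from 211 and 213 CPM to 260 and 255 CPM in EpiSC. It was lower in each XEN pair and higher in all treated libraries of the other lines, with changes of -0.39, 0.28 and 0.28. The interaction was -0.67 ± 0.0867 (SE; edgeR adjusted p = 2.25e-05). It was the 1 gene called of 7 Hippo target genes (1.64% of all genes were called lower). The estimates of the 7 were all below 0 with a median of -0.279. Of all 14 tested genes of that list, also those below the level threshold, 1 was called higher, Wwc1 at 1.52. Wwc1 averaged only 0.532 CPM in the XEN DMSO libraries, so its XEN change rests on few reads. Amotl2 and Ccn1 were the 2 called lower. With offsets for transcript length and GC content, 2 of the 7 were above 0. Outside that list, Frmd6, a FERM protein that acts above the Hippo kinases, differed by -0.79 ± 0.139 and Vgll4, which competes with YAP for TEAD, by -0.74 ± 0.2 (SE; edgeR adjusted p = 0.00145 and 0.046). Both rose in TSC and in EpiSC, and neither XEN change passed. Actn1, the actin crosslinker alpha-actinin, fell by 0.53 in XEN and differed by -0.55, and shares exons with Gm47766.

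Notch1 and Wnt7b fell in XEN. Notch1, the receptor, was read at 9.09, 15.7 and 11.2 CPM in XEN DMSO and at 5.77, 9.7 and 5.21 CPM with STM2457. It went from 80.8 and 64.9 CPM to 88.1 and 86.1 CPM in TSC and from 55.6 and 46.8 CPM to 50.7 and 49.2 CPM in EpiSC. It was lower in each XEN pair, and the interaction was -0.92 ± 0.18 (SE; edgeR adjusted p = 0.00435). Without a library of the third pair it was -0.79 and not called (edgeR adjusted p = 0.0753 without the DMSO library). Wnt7b, a WNT ligand, fell in XEN by 0.35 and rose in EpiSC by 0.97, from 6.95 and 5.14 CPM to 12.1 and 11.7 CPM. Its interaction was -0.90 ± 0.136 (SE; edgeR adjusted p = 0.000247), and it shares exons with AU022754. Among 9 feedback genes of the WNT, TGF-beta and BMP pathways, edgeR called 0 in the interaction, with a median of -0.208. Phlda1, a gene of the FGF and ERK feedback list, fell by 0.42 in XEN and rose by 0.90 in EpiSC, with -0.35 in TSC, and differed by -0.69.

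Mt1, Impact, Peg3, Rb1 and Mipol1 fell in XEN by more than in the mean of the other lines. Mt1, a metallothionein that binds zinc, was read at 68.6, 35.1 and 47 CPM in XEN DMSO and at 30.6, 18.6 and 18.5 CPM with STM2457. It went from 63.4 and 54.4 CPM to 46 and 45.6 CPM in TSC and from 7.2 and 6.65 CPM to 5.96 and 4.86 CPM in EpiSC. The arms did not overlap in any line. Mt1 fell by 1.15 in XEN and by 0.36 in TSC, and the interaction was -0.79 ± 0.138 (SE; edgeR adjusted p = 0.00145).

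Of 14 imprinted genes 2 were called, both lower in XEN (1.64% of all genes). Impact, which restrains the GCN2 kinase, fell in XEN from 190, 134 and 188 CPM to 108, 80.7 and 114 CPM. It went from 19.5 and 21.2 CPM to 16.3 and 18.8 CPM in TSC and from 99.3 and 106 CPM to 84.5 and 88.3 CPM in EpiSC. The arms did not overlap in any line, and the interaction was -0.53 ± 0.0942 (SE; edgeR adjusted p = 0.00171). Peg3, a zinc finger protein, fell in XEN from 245, 256 and 284 CPM to 189, 155 and 146 CPM, by 0.69, with -0.25 in TSC and 0.09 in EpiSC. The median of the 14 imprinted genes was -0.0915.

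Rb1, the retinoblastoma protein that restrains E2F factors, fell in every line, by 1.06 in XEN, 0.41 in TSC and 0.57 in EpiSC. Its difference of -0.57 (edgeR adjusted p = 0.0315) was called under 9 of 27 alternatives and in 3 of the fits without 1 library, those without a library of the first XEN pair or the first TSC DMSO library, and its exons overlap Lpar6 and Rcbtb2. Mipol1 fell in every line as well, by 1.27 in XEN, and differed by -0.80. Sptb, the spectrin beta chain of the membrane skeleton, fell by 0.74 in XEN and rose by 0.61 in TSC. Its interaction was -1.02 ± 0.196 (SE; edgeR adjusted p = 0.00326), it was -0.74 and not called without either library of the third XEN pair (edgeR adjusted p = 0.186), and it shares exons with Plekhg3.

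Some other negative differences came from a rise in TSC, EpiSC or both, and others went with a fall in XEN. Tnfaip3, the ubiquitin-editing inhibitor of NF-kB, was read at 26, 30.6 and 30.3 CPM in XEN DMSO and 25.7, 30.4 and 24.2 CPM with STM2457, and went from 10 and 9.95 CPM to 17.6 and 21.2 CPM in EpiSC. Its change was -0.12 in XEN, 0.36 in TSC and 0.96 in EpiSC, and the interaction -0.77 ± 0.143 (SE; edgeR adjusted p = 0.00235). Fgd6, a CDC42 exchange factor, rose by 1.03 in EpiSC against -0.03 in XEN, and Klf5, a factor of early lineages, by 0.65 against -0.15. Pcgf5, a PRC1 subunit, rose by 0.46 in EpiSC and differed by -0.54. Resf1, a retroelement silencing factor, fell by 0.31 in XEN and rose by 0.38 in TSC and 0.53 in EpiSC, with an interaction of -0.76 ± 0.0988 (SE; edgeR adjusted p = 2.25e-05). Enpp5 fell by 0.60 in XEN and Cgref1 by 0.49.

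Of the 8 m6A writer complex genes, 6 rose in XEN, 5 in TSC and 4 in EpiSC (15%, 12.9% and 14.9% of all genes rose there), with median changes of 0.355, 0.421 and 0.234. In the interaction edgeR called 0 of 8, and the median was 0.0159. Wtap, the adaptor that brings the complex to nuclear speckles, rose by 0.73, 0.79 and 0.78. Rbm15, an RNA-binding adaptor, rose by 0.42 in XEN and 0.93 in TSC, which differed by -0.51 (adjusted p = 0.0135 in edgeR). Mettl3 itself was read at 48.7, 46.5 and 57.6 CPM in XEN DMSO and at 48.4, 41 and 50.1 CPM with STM2457. Its interaction was 0.06 (edgeR adjusted p = 0.912). The inhibitor acts on the protein, so this level is no check of inhibition, and exons of Mettl3 overlap Tox4.

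Among 11 readers and erasers, Ythdc1, the nuclear reader of m6A, was called lower (1.64% of all genes). It rose in all lines: in XEN from 117, 109 and 127 CPM to 146, 131 and 159 CPM, in TSC from 107 and 109 CPM to 208 and 198 CPM, and in EpiSC from 104 and 110 CPM to 145 and 152 CPM. The arms did not overlap in any line, and the rise was largest in TSC. The log2 changes were 0.30, 0.91 and 0.48. The interaction was -0.39 ± 0.0846 (SE; edgeR adjusted p = 0.0101), with a difference of -0.61 from TSC (adjusted p = 0.00162) and -0.18 from EpiSC, which was not called. Ythdf2, the cytoplasmic reader that recruits deadenylation, rose by 0.73, 0.57 and 0.47 and was not called in the interaction.

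Large protein complexes showed small positive estimates. Of 77 respiratory chain subunits, 72 were above 0 with a median of 0.191, against a median of 0.0102 over all genes. In the interaction 5 were called higher (1.48% of all genes): Ndufb3, Atp5g3, Ndufs6, Cyc1 and Ndufa8. Against EpiSC alone 5 were higher in XEN (1.68% of all genes), and against TSC alone edgeR called 0. TSC lowered 27 and EpiSC 33 of the 77, and XEN 10 (12.2%, 11.8% and 12.3% of all genes fell there). Of 79 cytosolic ribosomal proteins, 75 were above 0 with a median of 0.179. Only Rpl13a was called, which is near the share over all genes. Of 77 mitochondrial ribosomal proteins 63 were above 0 with a median of 0.148, and Mrpl40, Mrpl4 and Mrpl51 were called (1.48% of all genes). These values moved with the XEN pair left out and with transcript features. Without the first pair 19 respiratory and 30 cytosolic ribosomal genes were called, and without the second edgeR called 0 of either. With offsets for length and GC content the medians fell to 0.0554 for respiratory subunits and 0.0342 for cytosolic ribosomal proteins, with 1 and 0 called in edgeR. Fbl, the methyltransferase of box C/D particles, was the 1 gene called of 38 in ribosome biogenesis (1.48% of all genes), where 34 were above 0. Scaled to ribosomal protein genes, the medians were 0.0176 for respiratory subunits, -0.0321 for mitochondrial ribosomal proteins and -0.0337 for ribosome biogenesis. The median over all 9047 genes was -0.17 under that scaling. A change of scaling moves all genes by nearly the same amount, so where these lists lie against that median does not test them.

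Zinc finger genes named Zfp leaned the other way. Of 203, edgeR called 1 higher (Zfp41) and 10 lower, against 1.48% and 1.64% of all genes. Their median was -0.0611, against 0.0102 over all genes. Zfp704, Zfp948 and Zfp62 had the smallest p among them, with estimates of -0.49, -0.53 and -0.45. All 3 rose in TSC and EpiSC, and Zfp62 also in XEN. With the length and GC offsets the median was -0.00888, with 5 called higher and 8 lower. Among other lists, edgeR called 2 of 23 nuclear RNA export genes higher (1.48% of all genes), Nxt1 and Thoc6, with a median of 0.0281. It called Per1 lower of 9 clock genes (1.64% of all genes) and Hist1h1c higher of 2 histone genes (1.48%). It called 0 of 30 mitosis, 15 heat shock, 20 aminoacyl-tRNA synthetase, 24 glycolysis and hypoxia and 21 SR protein and CLK kinase genes (3.12% of all genes).

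Genes called higher had shorter and more GC-rich transcripts than those called lower. Among protein-coding genes, the median transcript of those called higher (128) was 2312 bases long with 5 exons and a GC content of 54.73%. In those called lower (143) it was 4525 bases with 11 exons and 46.98%, and over all 8786 it was 3247 bases with 10 exons and 49.83%. From the shortest to the longest quartile of transcripts the median interaction went from 0.104 to -0.0579. In TSC the median change was -0.132 in the shortest quartile and 0.0668 in the longest, and in EpiSC -0.0611 and 0.0312. In XEN the 3 pairs disagreed: -0.0923 to 0.0867 in the first, 0.132 to -0.121 in the second and -0.0107 to -0.0249 in the third. The gradient with length in XEN therefore differed in sign between pairs. With offsets for length and GC content, the order of the called genes was reversed: the median transcript was 4612 bases with 50.02% GC in the 202 protein-coding genes then called higher, and 3352 bases with 52.41% in the 209 called lower.

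Exon junction density showed a gradient of the same sign in every line. The median change in the quartile with the fewest junctions per kb was 0.107 in XEN, 0.0976 in TSC and 0.123 in EpiSC, and in the quartile with the most it was -0.0847, -0.132 and -0.108. The median interaction over those quartiles was 0.0108 and 0.033. By GC content the interaction went from -0.0626 to 0.0781 and the XEN change from -0.0901 to 0.0422. These are descriptions over genes, with no test.

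**Figure D5:**
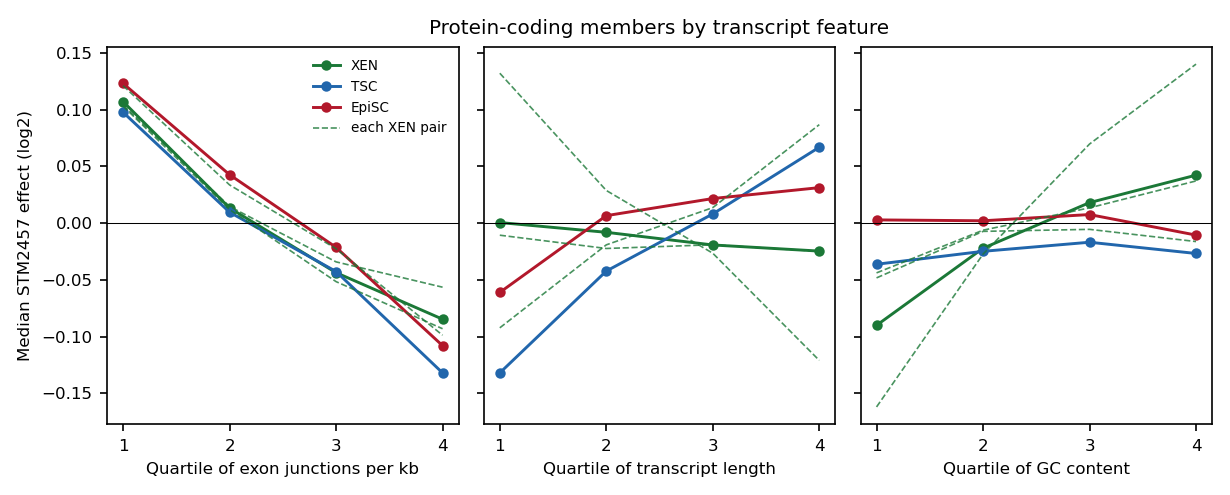
Median log2 change with STM2457 (vertical axis) by quartile of transcript length, exon junctions per kb and GC content (horizontal axes), for XEN, TSC and EpiSC, with a dashed line for each XEN pair. The lines run together for junction density, from 0.107 down to -0.0847 in XEN, and part for transcript length.

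Of 274 X-linked genes, 5 were called higher and 3 lower, beside 129 and 145 of 8749 autosomal genes. The X-linked counts are near the shares over all genes (1.48% and 1.64%). The median interaction was -0.000471 for X-linked and 0.0115 for autosomal genes. Xist, the RNA that silences the X chromosome, was read at 912, 2010 and 1430 CPM in XEN DMSO and at 833, 1010 and 1020 CPM with STM2457. It fell in XEN by 0.54, and its interaction of -0.46 ± 0.163 was not called (SE; edgeR adjusted p = 0.209). Xist and its antisense partner Tsix share reads if counting ignored strand, and the EpiSC carry a Tsix deletion.

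The level threshold kept some genes barely in and others barely out. Sort1, Galnt12 and Cdc42ep1 lay just above 5 CPM in their lowest line, with interactions of 0.06, -0.01 and -0.11. Sorl1, Tmem121 and Map3k13 lay just below it, with 0.66, 0.52 and -0.49.

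Of the 61 named genes that were called, 29 kept the call under every alternative other than the fit without pairing and the scaling to ribosomal protein genes. They included Ebp, Lrp8, Mvk, Fads2, Elovl6, Acly, Stat2, Neat1, Tor1aip2, Amotl2, Frmd6, Mt1, Wnt7b, Resf1, Tnfaip3, Impact, Peg3 and Ythdc1. Leaving out either library of an XEN pair gives nearly the same fit, since the replicate block then takes up the other library. A call lost in both such fits thus reflects a single pair. Among the 14 fits that each left out 1 library, 31 of the 61 were called in all. Kctd17 lost its call in 2 of them (largest edgeR adjusted p = 0.0787, without a library of the second XEN pair), Zfp948 in 2 (0.0549, the same pair), Zfp62 in 2 (0.0609, without the second STM2457 library of TSC) and Phlda1 in 1 (0.0602, the same library). Cbx2 lost it in 4 (largest edgeR adjusted p = 0.0573), Borcs6 in 5 (0.0811), Mrpl4 in 5 (0.0997) and Nxt1 in 6 (0.0959), each including at least 1 XEN pair. The other 19 lost it in 7 or more, with largest adjusted p from edgeR of 0.0754 for Btg2 to 0.263 for Vgll4, and they include Swsap1, Dusp6, Thoc6, Vldlr, Per1, Cgref1, Mipol1, Fbl, Hist1h1c, Rb1 and the named respiratory and ribosomal protein genes. Exons of 58 of the 282 called genes are shared with another tested gene. In 7 of the 58 the other gene lies on the same strand, so strand does not separate the reads (Mipol1 and Prps1l3, for example). In the others reads cannot be told apart if strand was ignored, among them Tor1aip2 with Tor1aip1, Acss2 with Gss and Ggt7, Thoc6 with Bicdl2 and Hcfc1r1, Notch1 with 0610009E02Rik and Phlda1 with Gm28592.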

How the data were processed

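The deposited table holds the authors' raw read counts, not normalized. Per the submitters' processing notes, reads went through FastQC, Trim Galore, STAR and featureCounts on GRCm39 (mm39). Versions and the strand setting of the counting are not given in the sources used here. Names came from GENCODE M21 (GRCm38) by identifier: 52083 of 55416 had one, and no coordinates from it are given.

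All 14 libraries were fitted in edgeR 4.0.16 (R 4.3.3) with 6 groups of line and arm, a block for the replicate number in XEN, TMM scaling, filterByExpr (minimum count 10, minimum total 15) and a robust quasi-likelihood test. Genes were called two-sided at an adjusted p (Benjamini-Hochberg, over all tested genes) under 0.05. SE is the log2 estimate over the square root of F. The block was part of the comparison as it was defined. Same-numbered XEN libraries deviated together from their group means (r of 0.46, 0.65 and 0.66), with r of -0.2 in TSC and 0.035 in EpiSC. XEN has 3 libraries per arm and the other lines 2, so these values are not strictly comparable. Log2 differences per pair used a prior count of 2. The method was tested on simulated data with a common dispersion and no replicate effect within XEN. That test therefore does not cover the pairing or the larger spread of the XEN libraries.

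Named genes are Mettl3, Xist and Tsix, the 12 largest differences in each direction among called genes whose XEN differences lay beyond those of the other lines, up to 4 of each class of response and 3 of each list by p, and 3 genes either side of the level threshold. Other genes are named to complete a list's counts or as contrasts and were chosen after their values were seen. Members and lists were chosen with earlier results of these data known. Alternatives used DESeq2 1.42.0, limma 3.58.1, other scalings and filters, other pairings, and leaving out libraries. A few genes are not reported here.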

Additional observations from a re-analysis of the deposited data

Results flagged for a closer look

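The response of XEN differed from the mean of TSC and EpiSC, by a test of the difference itself, for 134 genes that were higher and 148 that were lower. Some of the named genes also differed between the 2 reference lines in edgeR. The EpiSC change minus the TSC change was -0.71 for Fads2, -0.55 for Elovl6 and -0.5 for Acly, all genes of fatty acid synthesis (log2). It was -0.67 for Hist1h1c, a linker histone, -0.66 for Sptb and -0.44 for Ythdc1. It was 1.25 for Phlda1, 0.86 for Wnt7b and 0.86 for Fgd6, which responded higher in EpiSC than in TSC. For these genes the mean of the 2 lines stands for unlike values.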

How the results depend on the processing

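All counts are genes called at an adjusted p under 0.05 among the 9047, in the order XEN against the mean of the others (282), XEN (2473), the mean of TSC and EpiSC (3730), XEN against TSC (152) and XEN against EpiSC (342), in edgeR unless named. Without the replicate block they were 1, 659, 1043, 0 and 2, with 492 genes at an unadjusted p under 0.05 for the comparison that gave 0. With the block in every line the interaction gave 103, XEN against TSC 49 and XEN against EpiSC 151. With the scaling to ribosomal protein genes the 5 counts were 39 (3 higher, 36 lower), 1038, 2429, 11 and 47. With limma voom and weights per line they were 66 for the interaction, 1445 for XEN, 47 against TSC and 124 against EpiSC. With no filter on low counts they were 485, 283 and 520 for the interaction and the comparisons with TSC and EpiSC. With offsets for length and GC content, chosen after seeing the data, XEN against TSC gave 235 and against EpiSC 531. Without the first XEN pair in both arms the interaction gave 836, XEN against TSC 645 and against EpiSC 774. Without the third they were 157, 70 and 198. Leaving out each library in turn gave 110 to 842 for the interaction, 1677 to 2438 for XEN, 2756 to 4360 for the mean, 32 to 646 against TSC and 123 to 775 against EpiSC. Other alternatives kept these counts within 1.5 times, and none of the 61 named genes that were called changed direction. Mettl3, Sort1 and Galnt12, which were not called, crossed 0. The cause was not tested. XEN libraries are the shallowest.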

Other observations

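Outside the 9047 genes, 47 of 9383 tested genes were called in the interaction (0.501%), 19 higher in XEN and 28 lower. These genes were read below 5 CPM in the DMSO libraries of at least 1 line and are named after their values were seen. Socs1, an inhibitor of cytokine signalling, had an interaction of 1.98, Ifitm3, an interferon-induced membrane protein, 1.5, and Wwc1, the Hippo regulator KIBRA, 1.52 on the log2 scale. In the XEN DMSO libraries they averaged only 0.467, 0.858 and 0.532 CPM, so their XEN changes rest on few reads. Gadd45b, a stress gene, stood at -0.94 and Ccn1, a matricellular YAP target, at -0.70. Lcp1, the actin bundler plastin, had -0.99 and Parm1 -1.12.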
